A study of Mus musculus with 6 samples.

Results

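The genes described here are 37 mouse genes of glucose breakdown, the pentose phosphate pathway and the response to low oxygen, followed in EL4 cells given RGFP966. They were chosen by symbol, and each matched 1 of the 51912 Ensembl gene IDs in the count table. They comprise 17 glycolytic enzymes, 5 regulators of glycolytic flux, 6 pentose phosphate enzymes and 9 hypoxia genes. EL4 is a mouse T-cell lymphoma line, labelled here as T lymphocyte cells of wild-type genotype and studied by bulk RNA sequencing. For 3 libraries the medium held 10 µM RGFP966, which inhibits the histone deacetylase HDAC3, over 24 h, and for the other 3 it held vehicle alone. The vehicle is not named in the labels, and wild type is the genotype given for both groups. Since nothing in the labels says whether replicate libraries are separate cultures, every p-value measures the spread between these libraries, which may be technical.

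Glycolysis splits glucose into pyruvate in the cytosol, and lactate dehydrogenase turns pyruvate into lactate so that the pathway can run on. Proliferating T cells and lymphomas are known for sending much of their glucose this way even when oxygen is present. The pentose phosphate pathway branches off after the first step and yields NADPH and ribose phosphate. When oxygen is low, prolyl hydroxylases no longer mark hypoxia-inducible factor (HIF) alpha subunits for destruction, and HIF then raises many glycolytic genes together with genes of mitophagy, collagen modification and vessel growth.

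The RGFP966 libraries held 13564289, 12935443 and 14768540 counts, against 15380331, 16451017 and 15773700 in the vehicle libraries. The RGFP966 mean was 13.3% lower (exact two-sided permutation test, p = 0.1, which is as small as 3 against 3 allows). Within a group no library was a copy of another: chi-square per degree of freedom ran from 2.22 to 3.53 times counting error. All 11 T cell markers had at least 1 CPM (counts scaled to a common library size) in every library, summing to 2902 to 2967 CPM with RGFP966 and 2809 to 2835 CPM with vehicle. The extraction text in the labels speaks of retinas, yet 4 of 15 retina markers had no count in any library, and the list summed to 5.22 to 5.70 CPM with RGFP966 and 4.84 to 5.44 CPM with vehicle. Lists of B cell markers (18.7 to 19.1 CPM with RGFP966, 11.3 to 12.1 CPM with vehicle; 2 of 8 at 0 throughout) and endothelial markers (105 to 109 CPM with RGFP966, 75.5 to 76.6 CPM with vehicle; 1 of 6 at 0) summed higher with RGFP966. Only 1 of the 8 B cell markers and 3 of the 6 endothelial markers had at least 1 CPM in every library. The 2 B cell markers tested went opposite ways, with log2 fold changes of -0.66 and 0.82. Such sums do not show that cells of these types were present. Myeloid markers summed to 12.5 to 13 CPM with RGFP966 and 12.3 to 13.8 CPM with vehicle, and erythroid and epithelial lists reached at most 2.21 CPM in any library. The fibroblast list, which holds the T cell gene Thy1, summed to 971 to 1035 CPM with RGFP966 and 918 to 952 CPM with vehicle. Whether what lies behind these marker values bears on the results below was not tested. In bulk libraries, fewer cells of a type and less RNA per cell cannot be told apart.

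Per length of exon, glycolytic enzymes spanned the whole range of levels, and several late enzymes were at the top. Levels are given as RPKM, the CPM divided by the kilobases of exon, mean ± SD of n = 3 libraries. The length is that of all annotated exons of a gene merged, which can exceed the transcript in use, so ranks between genes depend on it. Ldha, the lactate dehydrogenase subunit of muscle and tumours, stood at 517 ± 18.4 RPKM with RGFP966 and 489 ± 38.4 RPKM with vehicle. Pgk1, phosphoglycerate kinase, stood at 429 ± 19.2 RPKM with RGFP966 and 434 ± 26.4 RPKM with vehicle. Pkm, pyruvate kinase, followed at 396 ± 9.26 RPKM with RGFP966 and 350.4 ± 26.4 RPKM with vehicle. By this measure these enzymes lay far above the phosphofructokinases, of which Pfkp had 73.9 ± 2.51 RPKM with RGFP966 and 76.4 ± 2.99 RPKM with vehicle. The merged exons of Pfkp span 13401 bases and those of Pgk1 2244. Before division by length, Pfkp (990 CPM with RGFP966, 1024 CPM with vehicle) was close to Pgk1 (963 CPM with RGFP966, 975 CPM with vehicle). Eno1, the housekeeping enolase, had 346 ± 7.74 RPKM with RGFP966 and 318 ± 26.5 RPKM with vehicle. The 6 pentose phosphate enzymes ran between 10.1 RPKM (Rpia, ribose phosphate isomerase) and 95.9 RPKM (Taldo1, transaldolase) with RGFP966, and between 10.4 RPKM (Rpia) and 97.5 RPKM (Taldo1) with vehicle. Of the other glycolytic enzymes, Aldoa had 254 ± 19.5 RPKM with RGFP966 and 296 ± 31.4 RPKM with vehicle, and Gapdh 118 ± 13.2 RPKM with RGFP966 and 123 ± 14.5 RPKM with vehicle. The flux regulators ran between 0.965 RPKM (Pfkfb4) and 42.7 RPKM (Pdk3) with RGFP966 and between 0.974 RPKM (Pfkfb4) and 43.1 RPKM (Pdk3) with vehicle, so that Pdk3 lay above the hexokinases Hk1 and Hk2. Egln3, an oxygen-sensing prolyl hydroxylase, had the highest level of the hypoxia genes, at 82.4 ± 5.06 RPKM with RGFP966 and 70.6 ± 7.95 RPKM with vehicle, and Hif1a itself had 31.1 ± 0.572 RPKM with RGFP966 and 31.5 ± 1.81 RPKM with vehicle. At the low end stood Ankrd37, a small ankyrin-repeat protein (0.641 ± 0.36 RPKM with RGFP966, 0.812 ± 0.26 RPKM with vehicle), and Aldoc, the brain aldolase (0.543 ± 0.0852 RPKM with RGFP966, 0.504 ± 0.105 RPKM with vehicle).

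**Figure D1:**
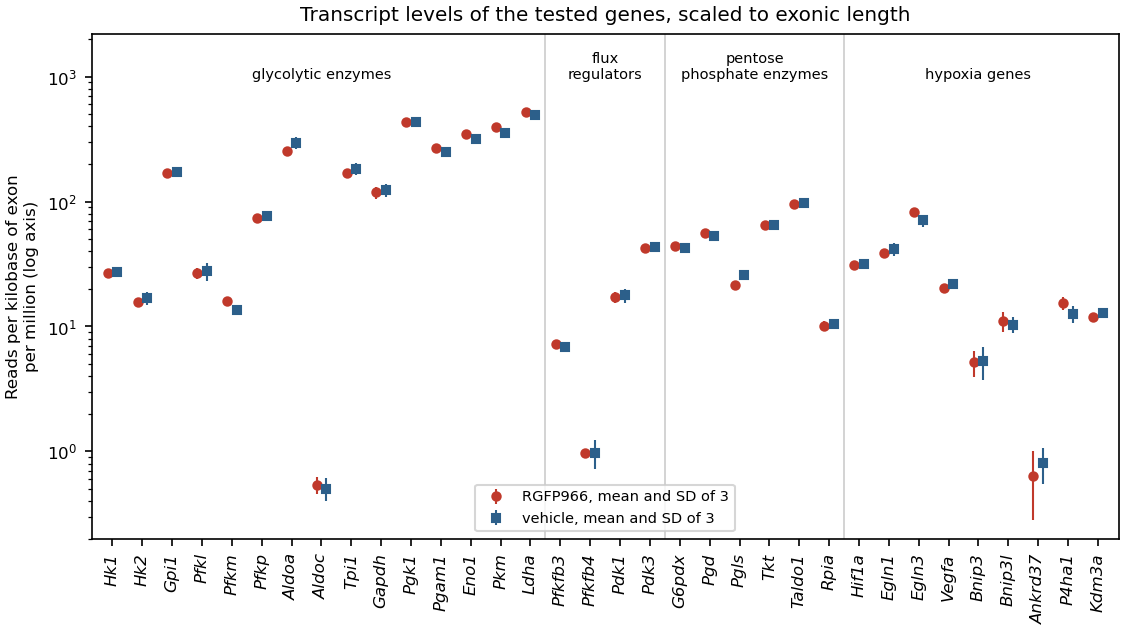
Transcript levels of the 34 tested genes in RPKM on a log axis, as mean and SD of 3 RGFP966 libraries (red circles) and 3 vehicle libraries (blue squares), grouped by role. Ldha is highest at 517 RPKM with RGFP966 and 489 RPKM with vehicle, Aldoc lowest at 0.543 RPKM with RGFP966 and 0.504 RPKM with vehicle, and the paired points nearly coincide for most genes.

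Isozymes divided each step unevenly. Hk1 and Hk2, which phosphorylate glucose on entry, made up 62.9% ± 1.28 and 36.8% ± 1.18 of hexokinase RPKM with RGFP966 and 61.9% ± 1.30 and 38.0% ± 1.36 with vehicle (SD, n = 3). Of phosphofructokinase, the committed step of glycolysis, the platelet form Pfkp took 63.3% ± 0.63 with RGFP966 and 65.1% ± 1.96 with vehicle, and the liver form Pfkl 23.0% ± 1.35 with RGFP966 and 23.4% ± 2.09 with vehicle. The muscle form Pfkm took 14.1%, 14.3% and 12.9% in the RGFP966 libraries against 11.3%, 11.7% and 11.5% in the vehicle libraries, ranges that did not overlap. Aldoa held 99.8% of aldolase in both groups and Ldha 99.99% of lactate dehydrogenase, and Pdk3 held 71.3% ± 1.52 of pyruvate dehydrogenase kinase with RGFP966 and 70.9% ± 2.93 with vehicle, with nearly all the rest in Pdk1. Eno3, the muscle enolase and not among the 37 genes, took 8.75% ± 0.551 of enolase with RGFP966 and 6.93% ± 0.63 with vehicle, leaving Eno1 91.2% ± 0.535 with RGFP966 and 93.1% ± 0.61 with vehicle. Enolase here means Eno1, Eno2 and Eno3. Eno1b, a protein-coding gene that shares sequence with Eno1, was left out. It had 1339, 1456 and 1677 counts with RGFP966 and 1632, 1602 and 1333 counts with vehicle. These shares are descriptions of levels, depend on the same merged exon lengths and carry no test.

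Of the 37 genes, 3 did not pass the filter on low counts. Eno2, the neuronal enolase, had 0, 1 and 8 counts in the RGFP966 libraries and 11, 0 and 2 in the vehicle libraries. Ldhb, the heart subunit of lactate dehydrogenase, and Pdk2, a pyruvate dehydrogenase kinase, each had 1 count over the RGFP966 libraries and 0 over the vehicle libraries. A count of 0 allows up to 3 counts, which is 0.184 to 0.233 CPM depending on the library. That limit covers counting error only, and no fold change is given for these genes.

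Vehicle library 1 and RGFP966 library 3 stood apart from the others of their own group for many of these genes. This was noticed in the data and is given without a test. Bnip3, a mitophagy receptor of the mitochondrial membrane and a classic HIF target, had 8.52, 13.2 and 13.4 CPM in RGFP966 libraries 1 to 3 and 15.9, 11 and 9.15 CPM in vehicle libraries 1 to 3. Bnip3l, its close relative, had 40.4, 36.5 and 51.3 CPM with RGFP966 and 46.4, 37.6 and 35.4 CPM with vehicle. P4ha1, a collagen prolyl hydroxylase, had 58.8, 58.2 and 72.0 CPM with RGFP966 and 60.1, 50.8 and 43.9 CPM with vehicle. In each of these genes the highest values lay in RGFP966 library 3 and vehicle library 1. For Bnip3, however, RGFP966 libraries 2 and 3 were nearly equal and library 1 was the one apart, on the low side. RGFP966 library 3 and vehicle library 1 were also highest for Pfkl, the liver phosphofructokinase (172, 166 and 199.98 CPM with RGFP966, and 218, 169 and 165 CPM with vehicle). So they were for Pdk1, a kinase that shuts off pyruvate dehydrogenase (128, 125 and 149.7 CPM with RGFP966, and 155, 138 and 121 CPM with vehicle).

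Both libraries were the highest of their group in 22 of the 34 tested genes (64.7%), against 12.6% of all 13484 genes tested. No other combination of highest libraries held more than 3 of the 34. By role they were 11 of 15 glycolytic enzymes, 3 of 4 flux regulators, 8 of 9 hypoxia genes and 0 of 6 pentose phosphate enzymes. Hif1a was the hypoxia gene without the pattern, at 181, 183 and 187 CPM with RGFP966 and 178, 198 and 180.4 CPM with vehicle. On the log2 scale the excess of RGFP966 library 3 over RGFP966 libraries 1 and 2 and the excess of vehicle library 1 over vehicle libraries 2 and 3 correlated at r = 0.70 across the 34 genes, which share their libraries and are not independent, and at r = 0.03 across all tested genes. Both excesses were positive in 24 of the 34 genes (70.6%), against 27.9% of all tested genes. The genes took 1.36%, 1.37% and 1.44% of the counts in RGFP966 libraries 1 to 3 and 1.45%, 1.31% and 1.28% in vehicle libraries 1 to 3. Library 3 was the deepest RGFP966 library and library 1 the shallowest vehicle library, and whether depth has a part in the pattern was not tested. The labels give no batch that sets these libraries off. Genes with the pattern had wider standard errors of their RGFP966 effect, with a median of 0.08 on the log2 scale for the 22 and 0.04 for the other 12. Among genes whose mean was 5 CPM or more the gap was smaller, at 0.067 for 20 with the pattern and 0.043 for 11 others.

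**Figure D2:**
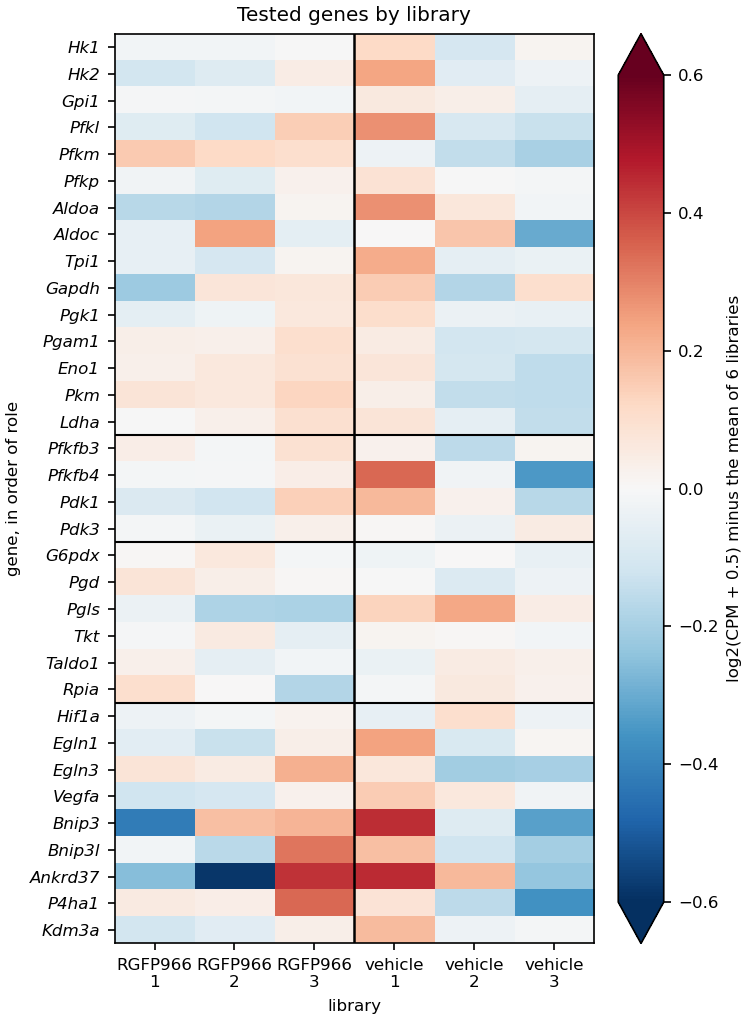
Each row is 1 tested gene, in order of role, and each column 1 library, RGFP966 to the left of vehicle; colour is log2(CPM + 0.5) minus the mean of that gene's 6 libraries, with the scale ending at 0.6 in either direction. In the glycolytic, regulator and hypoxia blocks many genes, but not all, are red in RGFP966 library 3 and vehicle library 1. In RGFP966 library 3, Gpi1 and Aldoc lie below the mean and Hk1, Aldoa and Tpi1 close to it. Pfkm and Hif1a lie below the mean in vehicle library 1. The red does not carry on through the pentose phosphate block, while Pfkm and Pgls differ between the groups.

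**Figure D3:**
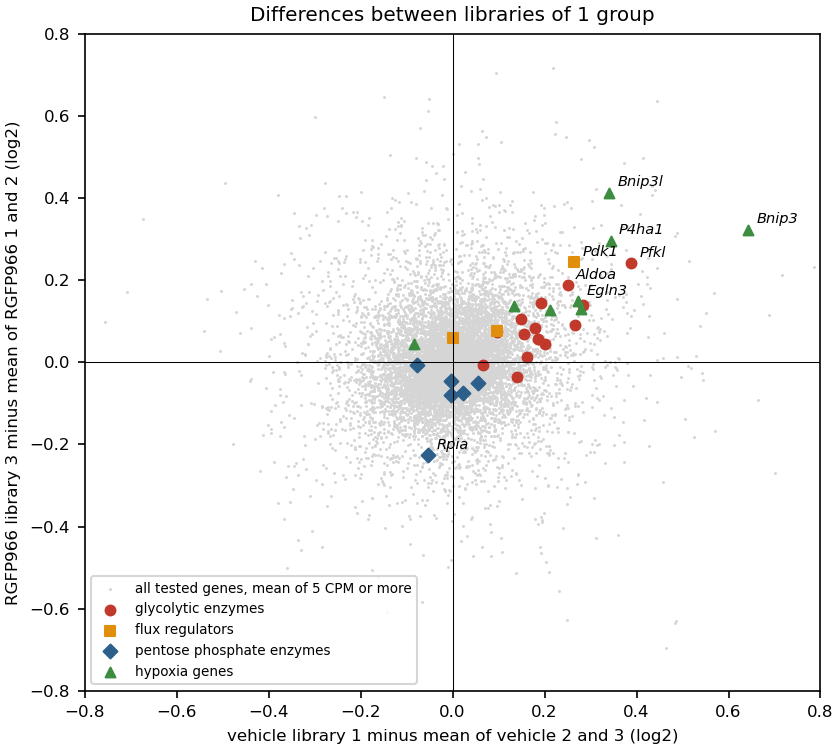
Vertical axis, log2 level in RGFP966 library 3 minus the mean of RGFP966 libraries 1 and 2; horizontal axis, log2 level in vehicle library 1 minus the mean of vehicle libraries 2 and 3. Grey points are 9990 tested genes whose mean is 5 CPM or more (11 more lie outside the axes) and coloured symbols the 31 described genes at that level: hypoxia genes and glycolytic enzymes spread to the upper right, with Bnip3l at 0.41 on the RGFP966 axis and 0.34 on the vehicle axis, and pentose phosphate enzymes do not.

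Since many of these genes are known HIF targets, the 300 bases around their start sites (250 before and 50 after, RefSeq, GRCm38.p6) were searched for the HIF core letters ACGTG or GCGTG on both strands. A window was found for 36 of the 37 genes, and where a gene had several the first was used. The letters occurred in 29 of the 36 windows (80.6%), against 43.8% of all 32851 promoter windows of that length. The share was 16 of 21 (76.2%) among genes highest in vehicle library 1 and RGFP966 library 3 and 11 of 12 (91.7%) among the other tested genes. The pentose phosphate enzymes, none of which had that library pattern, held the letters in 6 of 6 windows, with GCGTG in 6 and ACGTG in 1. Counted separately, ACGTG was in 10 of 21 windows with the pattern (47.6%), 6 of 12 others (50%) and 19.6% of all windows. GCGTG was in 12 of 21 (57.1%), 9 of 12 (75%) and 32.4% in the same order. A match is a description of the sequence and not a binding site, and base composition was not matched between the sets. Printed below are the windows of Bnip3 and P4ha1, which show the difference between libraries of 1 group, and of Pfkm and Pgls, which differed between the groups. Capitals mark ACGTG and GCGTG on either strand (CACGT and CACGC as read here), and CACGTG, the E-box also bound by MYC, counts once for each strand. Bnip3 lies at chr7:138909457-138909756 on the minus strand with 5 matches, P4ha1 at chr10:59323046-59323345 on the plus strand with 3, Pfkm at chr15:98092339-98092638 on the plus strand with 3 (the first of its 4 windows) and Pgls at chr8:71591934-71592233 on the plus strand with 1.
Bnip3: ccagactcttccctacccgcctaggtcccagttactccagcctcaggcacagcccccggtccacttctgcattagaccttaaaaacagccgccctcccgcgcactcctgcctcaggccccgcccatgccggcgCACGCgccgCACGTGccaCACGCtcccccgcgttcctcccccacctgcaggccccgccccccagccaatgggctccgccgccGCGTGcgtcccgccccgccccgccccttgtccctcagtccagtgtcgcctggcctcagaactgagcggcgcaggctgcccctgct
P4ha1: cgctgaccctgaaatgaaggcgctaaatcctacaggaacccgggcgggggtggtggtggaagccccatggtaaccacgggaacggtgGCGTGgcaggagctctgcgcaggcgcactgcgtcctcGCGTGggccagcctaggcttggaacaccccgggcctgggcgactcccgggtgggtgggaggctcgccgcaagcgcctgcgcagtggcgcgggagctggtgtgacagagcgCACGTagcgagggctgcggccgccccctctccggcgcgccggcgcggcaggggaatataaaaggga
Pfkm: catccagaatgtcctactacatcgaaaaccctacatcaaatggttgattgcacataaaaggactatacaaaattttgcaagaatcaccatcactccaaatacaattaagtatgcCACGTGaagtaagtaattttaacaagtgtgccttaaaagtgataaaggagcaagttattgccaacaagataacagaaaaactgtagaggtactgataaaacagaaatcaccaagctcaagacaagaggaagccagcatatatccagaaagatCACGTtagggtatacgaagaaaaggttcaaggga
Pgls: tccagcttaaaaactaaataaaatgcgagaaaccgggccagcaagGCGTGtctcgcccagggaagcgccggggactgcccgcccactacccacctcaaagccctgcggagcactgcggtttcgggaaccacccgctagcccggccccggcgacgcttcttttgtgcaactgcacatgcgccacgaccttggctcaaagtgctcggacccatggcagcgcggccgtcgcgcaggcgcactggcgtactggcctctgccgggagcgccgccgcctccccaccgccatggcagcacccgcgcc
Bnip3 and Pfkm each held 1 CACGTG, which 7.15% of all windows did.

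The comparison of RGFP966 with vehicle asked which of these genes differ after 24 h of HDAC3 inhibition. Few of them did: Pkm, Pfkm, Eno1 and Pgam1 were higher with RGFP966 by 8% to 19.2%, Pgls of the pentose phosphate pathway was 17.4% lower, and no flux regulator or hypoxia gene passed the test. Of the 34 genes tested, 4 were called higher and 1 lower in edgeR at an adjusted p under 0.05, which is 14.7%, against a background of 23.3% called among all 13484 genes (11.4% higher, 11.9% lower). The median log2 fold change of the 34 was -0.02, and that of all genes 0.00 to 2 decimals. All RGFP966 libraries lay above all vehicle libraries in 3 of the 34 (Pfkm, Pkm and Pgd), against 17.8% of all genes, and below them in 1 (Pgls), against 18.5%; together that is 11.8%, against 36.3%.

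Pkm, which makes the last and ATP-yielding step of glycolysis (chromosome 9, 59656368 to 59679375, plus strand, GRCm38, ENSMUSG00000032294), had 1961, 1947 and 2033 CPM with RGFP966 and 1905, 1678 and 1674 CPM with vehicle. Every RGFP966 library was above every vehicle library. Its log2 fold change was 0.18 ± 0.04 (SE; edgeR, adjusted p = 8.76e-04). Pfkm (chromosome 15, 98092589 to 98132451, plus strand, ENSMUSG00000033065) had 54.8, 53.4 and 52.8 CPM with RGFP966 and 48.1, 44.3 and 42.9 CPM with vehicle, again without overlap. Its log2 fold change was 0.25 ± 0.06 (edgeR, adjusted p = 0.00137). The other phosphofructokinases did not pass the test: Pfkl had a log2 fold change of -0.03 ± 0.15 and Pfkp, with 990.3, 956 and 1023 CPM with RGFP966 and 1070.1, 1005 and 997 CPM with vehicle, one of -0.05 ± 0.04.

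Eno1 and Pgam1, which act in neighbouring steps just before pyruvate kinase, were called higher by small margins. Eno1 (chromosome 4, 150236721 to 150248879, plus strand, ENSMUSG00000063524) had 1818, 1866 and 1901 CPM with RGFP966 and 1874, 1658 and 1605 CPM with vehicle. Vehicle library 1 lay among the RGFP966 libraries, and the other vehicle libraries lay below them. Its log2 fold change was 0.12 ± 0.04 (edgeR, adjusted p = 0.0417). The call was lost when any of vehicle libraries 2 and 3 or RGFP966 libraries 1 to 3 was left out, with adjusted p between 0.0541 and 0.234, and under 3 other settings. Pgam1, phosphoglycerate mutase (chromosome 19, 41911923 to 41918660, plus strand, ENSMUSG00000011752), had 524, 521 and 548 CPM with RGFP966 and 528, 474 and 474 CPM with vehicle. It showed the same overlap through vehicle library 1, with a log2 fold change of 0.11 ± 0.04 (edgeR, adjusted p = 0.0304). Leaving out vehicle library 2, vehicle library 3, RGFP966 library 1 or RGFP966 library 3 ended that call, at adjusted p between 0.0735 and 0.144, as did GC and length offsets (adjusted p = 0.0598).

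The other 11 tested glycolytic enzymes were not called. Aldoa, the main aldolase, had 709, 705 and 805 CPM with RGFP966 and 963, 833 and 786 CPM with vehicle. The groups overlapped through RGFP966 library 3 and vehicle library 3, and the log2 fold change was -0.22 ± 0.10 (edgeR, adjusted p = 0.233). Ldha had 1658, 1700.0 and 1778 CPM with RGFP966 and 1755, 1600.4 and 1503 CPM with vehicle, a log2 fold change of 0.08 ± 0.04 (edgeR, adjusted p = 0.198). Gapdh, glyceraldehyde phosphate dehydrogenase, ran from 426 to 520.5 CPM with RGFP966 and from 439 to 551 CPM with vehicle. Gpi1, which isomerises glucose phosphate, had 1099.8, 1098 and 1094 CPM with RGFP966 and 1151, 1134 and 1065 CPM with vehicle. Hk1, Hk2, Tpi1 (triose phosphate isomerase) and Pgk1 had log2 fold changes of -0.03, -0.10, -0.09 and -0.02, and Aldoc, at 1.62, 2.09 and 1.61 CPM with RGFP966 and 1.70, 1.96 and 1.28 CPM with vehicle, one of 0.10 ± 0.30.

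The 4 tested flux regulators overlapped between the groups. Pfkfb3, a bifunctional enzyme whose product activates phosphofructokinase, had 54.6, 52.7 and 56.6 CPM with RGFP966 and 54.1, 47.5 and 53.7 CPM with vehicle (log2 fold change 0.08 ± 0.06; edgeR, adjusted p = 0.374). Pfkfb4, of the same family, had 4.63, 4.65 and 4.83 CPM with RGFP966 and 6.06, 4.59 and 3.58 CPM with vehicle. Its vehicle libraries thus spanned the RGFP966 values on both sides. Pdk1 and Pdk3 had log2 fold changes of -0.04 ± 0.13 and -0.01 ± 0.05, Pdk3 with 109, 107 and 112 CPM with RGFP966 and 110.4, 107 and 114 CPM with vehicle.

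Among the pentose phosphate enzymes, Pgls, the lactonase between the NADPH-yielding steps, was lower with RGFP966 and the enzymes on either side of it were not called. Pgls (chromosome 8, 71592176 to 71601092, plus strand, ENSMUSG00000031807) had 86.9, 78.1 and 77.9 CPM with RGFP966 and 97.7, 105 and 91.7 CPM with vehicle. All RGFP966 libraries lay below all vehicle libraries, with a log2 fold change of -0.28 ± 0.05 (edgeR, adjusted p = 5.49e-05), the smallest adjusted p of the 34 genes. G6pdx, the X-linked enzyme that opens the pathway, had 134, 139 and 132 CPM with RGFP966 and 131, 134 and 129 CPM with vehicle (log2 fold change 0.04 ± 0.04). Pgd, which follows Pgls and gives the further NADPH, had 373, 362 and 355 CPM with RGFP966 and 353, 333 and 346 CPM with vehicle. Its groups did not overlap, but the log2 fold change of 0.08 ± 0.04 did not pass the test (edgeR, adjusted p = 0.129). In the branch that returns sugars to glycolysis, Tkt (transketolase), Taldo1 and Rpia had log2 fold changes of 0.00, -0.03 and -0.05, each with overlapping groups. Rpia was lowest in RGFP966 library 3, at 58.9, 55.1 and 48.6 CPM with RGFP966 and 54.5, 57.2 and 55.8 CPM with vehicle.

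**Figure D4:**
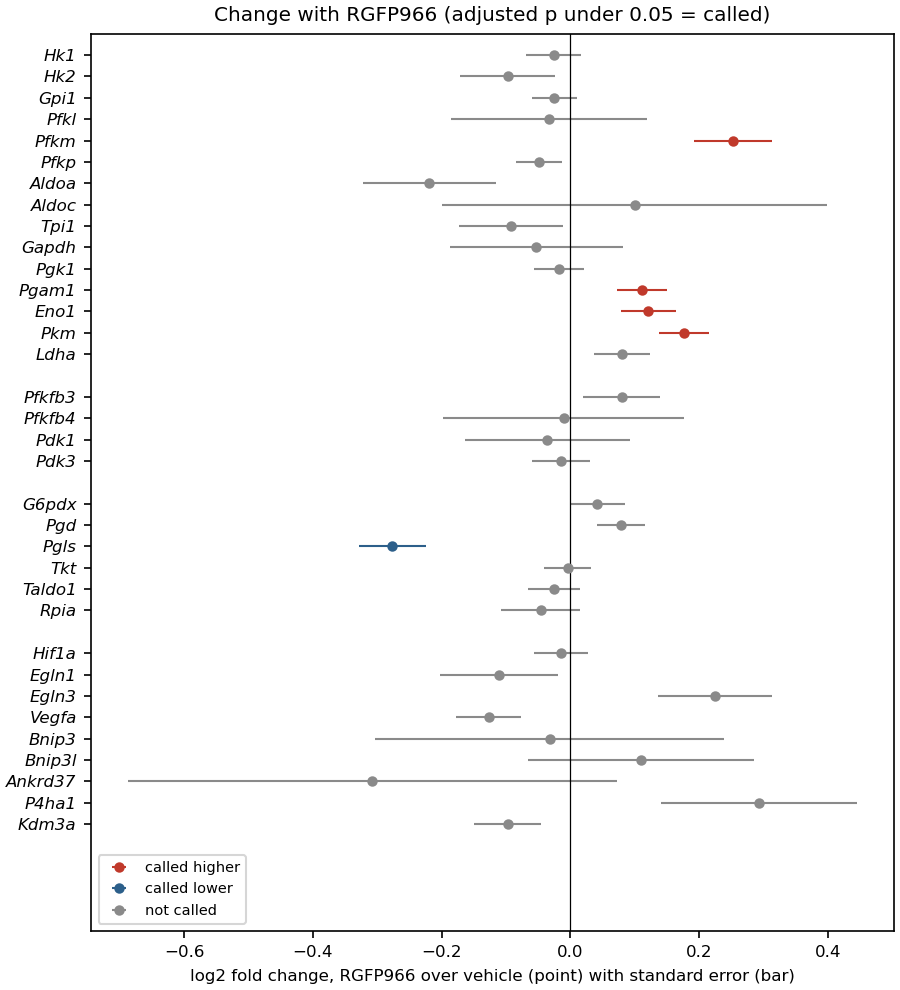
Log2 fold change of RGFP966 over vehicle (point) with its standard error (bar) for the 34 tested genes, in order of role. Pfkm, Pgam1, Eno1 and Pkm (red) are called higher and Pgls (blue) lower at an adjusted p under 0.05; the 29 grey genes are not called, and the wide bars of Ankrd37, Aldoc, Bnip3 and Pfkfb4 belong to genes of low count or unequal libraries.

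None of the 9 hypoxia genes was called in either direction, while 2 of them, Egln3 and P4ha1, had positive log2 fold changes above 0.20 with overlapping groups. Hif1a, the oxygen-regulated subunit, had a log2 fold change of -0.01 ± 0.04 (edgeR, adjusted p = 0.844). Egln3 had 214, 209.7 and 235 CPM with RGFP966 and 212, 175 and 176 CPM with vehicle. Vehicle library 1 reached the RGFP966 range and the other vehicle libraries did not, and the log2 fold change was 0.22 ± 0.09 (edgeR, adjusted p = 0.132). Egln1, the main oxygen sensor of the family, had 138, 132 and 148 CPM with RGFP966 and 171, 136 and 146 CPM with vehicle (log2 fold change -0.11 ± 0.09). Vegfa, the vessel growth factor, had 83.2, 84.2 and 92.1 CPM with RGFP966 and 100.5, 94.3 and 88.9 CPM with vehicle, with a log2 fold change of -0.13 ± 0.05 (edgeR, adjusted p = 0.0626). Kdm3a, a histone demethylase induced by HIF, had a log2 fold change of -0.10 ± 0.05. P4ha1 had the largest positive value, 0.29 ± 0.15 (edgeR, adjusted p = 0.27), and Bnip3, Bnip3l and Ankrd37 had -0.03 ± 0.27, 0.11 ± 0.18 and -0.31 ± 0.38. Ankrd37 rested on 11, 7 and 24 counts with RGFP966 and 25, 21 and 13 counts with vehicle.

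Leaving out both libraries that stood apart, which was done after seeing the data, left 2 libraries a group and 1997 of 13435 genes called (14.9%). Because these libraries were picked for being the high ones of their group in these same genes, standard errors shrink by that choice, and calls gained this way are no support for a difference. For the record, 6 of the 34 genes were then past the threshold as higher (Pfkm, Pkm, Eno1, Pgam1, Egln3 and P4ha1) and 2 as lower (Pgls and Aldoa). Log2 fold changes were 0.27 for Egln3, 0.31 for P4ha1 and -0.19 for Aldoa, against 0.22, 0.29 and -0.22 with all libraries. Among the planned fits that left out 1 library each, without vehicle library 1 alone, Ldha was also called, at a log2 fold change of 0.14 ± 0.04 (adjusted p = 0.00845). P4ha1 then reached 0.42 ± 0.08 (adjusted p = 5.72e-04), Egln3 0.32 ± 0.05 (adjusted p = 2.56e-07) and Aldoa -0.13 ± 0.05 (adjusted p = 0.0416). Vehicle library 1 was the highest vehicle library for each of these genes, Ldha included. Leaving it out narrows the vehicle spread by itself, so these calls too are no support for a difference. Calls of other genes also moved with single libraries: Vegfa was called without vehicle library 3 (-0.16, adjusted p = 0.0266) or RGFP966 library 3 (-0.17, adjusted p = 0.032), and Egln1 without vehicle library 2 (-0.18, adjusted p = 0.043). Aldoa was also called without vehicle library 3 (-0.27, adjusted p = 0.0246). With every library kept, other settings called some of the 34 genes as well. Pgd was called higher with upper-quartile factors (0.10, adjusted p = 0.0345) and with a minimum mean of 5 CPM (0.09, adjusted p = 0.0482). Pfkp was called lower with GC and length offsets (-0.11, adjusted p = 0.0178), but not with those offsets centred per library (-0.08, adjusted p = 0.0598). Vegfa was called with GC and length offsets (-0.16, adjusted p = 0.0114) and with those offsets centred per library (-0.13, adjusted p = 0.0438), and Kdm3a with the offsets uncentred (-0.14, adjusted p = 0.0339). With no filter on low counts Egln3 (0.22, adjusted p = 4.25e-06), P4ha1 (0.29, adjusted p = 5.57e-04) and Aldoa (-0.22, adjusted p = 0.0182) were called.

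Several of these genes share sequence with other annotated genes, so their counts may be split between copies. Gapdh shared 25.1% of its 50-base exonic words with other genes, and its 209 pseudogene copies in the table took 51.7% of the summed counts with RGFP966 and 51.1% with vehicle. Gene and copies together came to 924, 1047 and 1061 CPM with RGFP966 and 1116, 985 and 1008 CPM with vehicle. Those groups overlapped too. Pgk1 shared 53.9% of its words, Bnip3 47.2%, Pgam1 36.2%, Eno1 26.0%, Pkm 25.8% and Bnip3l 20.8%, while their copies held 7.72% or less of the sum with RGFP966 and 7.51% or less with vehicle. Only pseudogenes and, for Eno1, the gene Eno1b were taken as copies. Gm49759, with 12.1% of the words of Pkm, and AC160336.1, with 33.9% of those of Bnip3, were not. The shares hold reads assigned to a gene or copy, and reads assigned to neither cannot be seen in them. With copies added, the log2 difference of mean CPM between RGFP966 and vehicle was 0.13 for Eno1, 0.12 for Pgam1 and 0.18 for Pkm. Other genes overlap 15.3% of the exonic length of Pkm, with the largest part from Gm49759. For Pfkm the overlap is 10.7%, with the largest part from Gm26513. Both partners lie on the same strand as the gene they overlap. Gm49759 had a log2 fold change of 0.13 (edgeR, adjusted p = 0.197). Pgls has 20.6% of its exonic length in common with Fam129c on the same strand. Fam129c itself had a log2 fold change of -0.03 (edgeR, adjusted p = 0.9), and the sources used here do not give the strand setting of the counting. Ankrd37 overlaps other genes over 26.4% of its exons and is uncertain at its counts.

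Around these genes, 7 lists of neighbouring steps were read from the same fit. Of 102 genes tested in them, 20 were called higher and 17 lower, 36.3% against the background of 23.3%. The lists were fixed with earlier results of these data known, so the excess over the background is no independent result. The background also depends on the filter: with a minimum mean of 5 CPM, 29.5% of all genes were called. Uptake and export of glucose and lactate gave 4 called higher and 0 lower of 9, with a median log2 fold change of 0.20. Slc2a3, the high-affinity glucose transporter of neurons and lymphocytes, had 1769, 1797 and 1779 CPM with RGFP966 and 1559.8, 1512 and 1578 CPM with vehicle. The groups were far apart, at a log2 fold change of 0.20 ± 0.03 (edgeR, adjusted p = 8.87e-06). Slc2a6, a lysosomal sugar transporter, had 35, 33.8 and 33.7 CPM with RGFP966 and 21.5, 23.6 and 23.2 CPM with vehicle (log2 fold change 0.59 ± 0.08, adjusted p = 4.38e-08). Emb, embigin, a partner of the monocarboxylate transporters, had 58.7, 56.8 and 51.7 CPM with RGFP966 and 39.3, 43.3 and 37.4 CPM with vehicle (log2 fold change 0.48 ± 0.06, adjusted p = 9.35e-08). Neither of the transporters most tied to HIF was called. Slc2a1, the ubiquitous glucose transporter, had 73.1, 70.3 and 88.9 CPM with RGFP966 and 86.3, 64.1 and 59.0 CPM with vehicle (log2 fold change 0.15 ± 0.19, adjusted p = 0.659). Slc16a3, the lactate exporter of glycolytic cells, had 125, 123 and 141 CPM with RGFP966 and 114, 89.9 and 80.7 CPM with vehicle. Its groups did not overlap, yet the log2 fold change of 0.45 ± 0.16 did not pass (edgeR, adjusted p = 0.131). Both genes were called without vehicle library 1, at log2 fold changes of 0.34 (adjusted p = 0.00443) and 0.61 (adjusted p = 2.51e-12). That library was the highest vehicle library for both, so leaving it out raises the fold change and narrows the spread by itself. These calls are thus no support for a difference. With every library kept, the DESeq2 Wald test also called Slc16a3 (log2 fold change 0.45 ± 0.16, adjusted p = 0.0351). No other setting that kept every library called it. Slc16a1, the broader lactate transporter, had a log2 fold change of 0.06 ± 0.04.

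**Figure D5:**
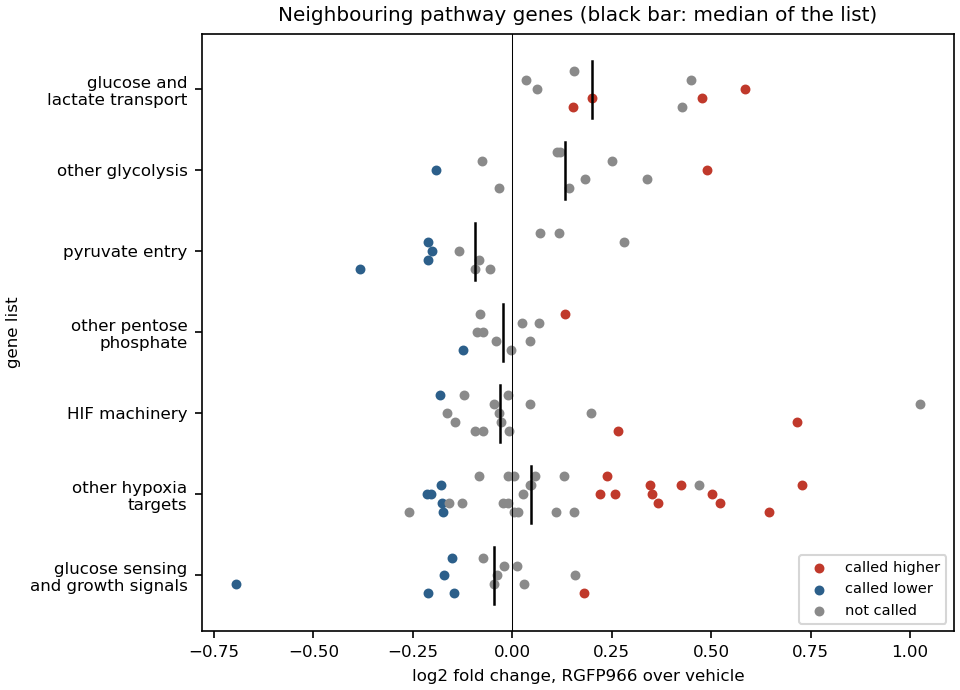
Log2 fold change of RGFP966 over vehicle for each tested gene of the 7 neighbouring lists, 1 row per list, with the median of the list as a black bar; red, blue and grey points are called higher, called lower and not called. Transport genes all lie to the right of 0 with a median of 0.20, and the other rows scatter on both sides.

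Entry of pyruvate into mitochondria gave 0 called higher and 4 lower of 11, with a median of -0.09. Pdpr, a regulatory subunit of pyruvate dehydrogenase phosphatase, had 56.1, 47.4 and 52.4 CPM with RGFP966 and 66.5, 66.3 and 70.7 CPM with vehicle (log2 fold change -0.38 ± 0.06, adjusted p = 1.22e-06). Pdhb, a subunit of pyruvate dehydrogenase, had 146, 145 and 146 CPM with RGFP966 and 161, 172 and 173 CPM with vehicle (log2 fold change -0.21 ± 0.04, adjusted p = 1.06e-04). In both genes the groups were apart. Other glycolytic isozymes gave 1 called higher and 1 lower of 10. Eno3 had 59.5, 59.0 and 54.4 CPM with RGFP966 and 40.2, 41.1 and 41.7 CPM with vehicle (log2 fold change 0.49 ± 0.06, adjusted p = 1.04e-08), and Pgm1, a phosphoglucomutase, stood at a log2 fold change of -0.19 ± 0.06 (adjusted p = 0.0112). Other pentose phosphate genes also gave 1 higher and 1 lower of 10, Prps2, a ribose phosphate pyrophosphokinase (log2 fold change 0.13 ± 0.04, adjusted p = 0.0106), and Dera, a deoxyribose phosphate aldolase (log2 fold change -0.12 ± 0.05, adjusted p = 0.0469).

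The HIF machinery gave 2 called higher and 1 lower of 16, with a median of -0.03. Arnt2, a neural partner of HIF alpha subunits, had 9.11, 6.28 and 7.51 CPM with RGFP966 and 4.17, 5.02 and 4.73 CPM with vehicle (log2 fold change 0.72 ± 0.16, adjusted p = 7.93e-04). On the same scale Hif3a, an alpha subunit that can restrain the others, stood at 0.27 ± 0.09 (adjusted p = 0.0251), and Egln2, a prolyl hydroxylase, at -0.18 ± 0.05 (adjusted p = 0.00208). Arnt, the constitutive partner, and Vhl, which recognises hydroxylated HIF, had log2 fold changes of -0.01 ± 0.06 and -0.07 ± 0.06 and were not called. Further HIF and hypoxia targets gave 11 called higher and 5 lower of 34 (47.1%), with a median of 0.05. Cited2, which competes with HIF for its coactivators, had 291, 301 and 271 CPM with RGFP966 and 200.3, 197 and 204 CPM with vehicle (log2 fold change 0.52 ± 0.04, adjusted p = 6.98e-15). Tfrc, the transferrin receptor, had 968, 992 and 997 CPM with RGFP966 and 829.7, 815 and 826 CPM with vehicle (log2 fold change 0.26 ± 0.03, adjusted p = 6.84e-08). Mif, a cytokine, and Jmjd6, an oxygenase, were lower, at log2 fold changes of -0.17 ± 0.04 (adjusted p = 9.91e-04) and -0.18 ± 0.05 (adjusted p = 0.0119). The list thus held calls in both directions. Glucose sensing and growth signals gave 1 higher and 5 lower of 13: Myc, a driver of glycolytic genes in lymphocytes, had 252, 247 and 242 CPM with RGFP966 and 223, 214 and 217 CPM with vehicle (log2 fold change 0.18 ± 0.04, adjusted p = 3.55e-04). Tfeb, a lysosomal and nutrient-sensing transcription factor, had 27.8, 26.3 and 22.7 CPM with RGFP966 and 39.6, 41.0 and 43.2 CPM with vehicle (log2 fold change -0.69 ± 0.07, adjusted p = 3e-10). On the same scale Rptor of the mTOR complex had -0.21 ± 0.05 (adjusted p = 5.45e-04), and Txnip, which restrains glucose uptake, had 0.16 ± 0.11 (adjusted p = 0.351). Both libraries that stood apart were the highest of their group in 13 of the 34 further hypoxia targets (38.2%), 4 of the 9 transport genes (44.4%), 4 of the 16 HIF machinery genes (25%), 2 of the 10 other glycolytic genes (20%) and 1 of the 11 pyruvate entry genes (9.09%). The pattern held in 0 of 13 glucose sensing genes and 0 of 10 other pentose phosphate genes, against 12.6% of all genes tested.

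Of the neighbouring genes named, 6 had calls that rested on single libraries or settings. Dera was not called when any library but vehicle library 1 was left out, at adjusted p from 0.068 to 0.188. With every library kept it was not called with DESeq2 size factors (adjusted p = 0.0508), upper-quartile factors (0.114) or total count alone (0.0838). Nor was it called with no filter (adjusted p = 0.0685), a minimum mean of 5 CPM (0.071), limma-voom (0.0518) or the DESeq2 Wald test (0.137). Leaving the 10 most abundant genes out of the scaling also ended the call of Dera (adjusted p = 0.0617). Hif3a was not called when vehicle library 2, vehicle library 3, RGFP966 library 1 or RGFP966 library 3 was left out, at adjusted p from 0.0666 to 0.200. Pgm1 lost its call without vehicle library 1 (adjusted p = 0.158) or RGFP966 library 1 (adjusted p = 0.133), and Prps2 without RGFP966 library 1 (adjusted p = 0.0648). Jmjd6 lost its call without vehicle library 1 (adjusted p = 0.151), RGFP966 library 1 (adjusted p = 0.0913) or RGFP966 library 3 (adjusted p = 0.0574). The DESeq2 Wald test on all libraries did not call Hif3a (adjusted p = 0.116), Pgm1 (adjusted p = 0.0617) or Jmjd6 (adjusted p = 0.0625). Mif kept its call with any 1 library left out. It lost the call with GC and length offsets (-0.09, adjusted p = 0.0663) and with those offsets centred per library (-0.06, adjusted p = 0.195). Prps2 also lost its call with the uncentred offsets (0.08, adjusted p = 0.121). Without both vehicle library 1 and RGFP966 library 3, Mif, Pgm1, Jmjd6, Hif3a and Dera were not called, at adjusted p from 0.0743 to 0.264. The calls of Slc2a3, Slc2a6, Emb, Pdpr, Pdhb, Eno3, Cited2, Tfrc, Myc, Tfeb, Rptor, Arnt2 and Egln2 held in every alternative run.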

How the data were processed

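RNA from 6 libraries was sequenced and summarised by the submitters as whole-number read counts per Ensembl gene, deposited without normalization. Build mm10 and the tools HTSeq 0.6.0, HISAT2 2.1.0, Bowtie2 2.2.3, TopHat2 and CASAVA are named in the submitters' processing notes, with no role for each. Which annotation was counted, and on which strand, is not stated there. Symbols and exon models came from tables of gene names and GENCODE M21, which cover 51633 IDs (99.46%). The counts were fitted in edgeR 4.0.16 (R 4.3.3): filterByExpr, trimmed mean of M values scaling, robust quasi-likelihood F test with group as the only term, and Benjamini-Hochberg adjustment over all 13484 genes tested. SE was derived as |log2 fold change| divided by √F. The fit was tested on simulated data. CPM and RPKM use the scaled totals, and a pseudocount of 0.5 CPM enters differences within a group.

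All 37 genes were named, with the 2 called genes of smallest p per direction from each neighbouring list and Slc2a1, Slc2a3, Slc16a1, Slc16a3, Arnt, Vhl, Myc and Txnip whatever their result. Genes and lists were chosen with earlier results of these data known. Alternatives were other scalings, filters and tests (DESeq2 1.42.0, limma 3.58.1), GC and length offsets, a replicate block and each library left out. Depth ran from 12935443 to 16451017 counts a library.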

Additional observations from a re-analysis of the deposited data

How the results depend on the processing

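Over 18 alternatives, Pfkm, Pkm and Pgls were called in all 18, Pgam1 in 13 and Eno1 in 10. Of 608 values of the 34 genes, 13 lost a call, 20 gained one, 47 of uncalled genes changed sign, and 0 called values reversed. Of 450 values of 25 named neighbouring genes, 34 lost a call, all of them in Dera, Hif3a, Jmjd6, Pgm1, Mif and Prps2, and 5 gained one, in Slc2a1 and Slc16a3. Genes of the 37 called higher numbered 4 with all libraries and 2 to 7 with 1 library left out. Genes called lower numbered 1, against 2 with no filter, 4 with GC and length offsets, 2 with those offsets centred per library, 1 to 3 with 1 library left out and 2 without vehicle library 1 and RGFP966 library 3. The causes were not tested. Over all genes, 1543 were called higher and 1602 lower; the DESeq2 Wald test called 1011 higher, and leaving out both those libraries, chosen after seeing the data as were the centred offsets, left 937 lower. Rises were 49.1% of calls, 59.1% with upper-quartile factors and 35.6% with GC and length offsets (1281 higher, 2314 lower). Neighbouring list genes called lower numbered 17, against 8 in the Wald test, 5 without both libraries and 10 to 15 with 1 left out, while GC and length offsets gave 24 and the centred ones 22. In their deviations from the group mean, same-numbered libraries correlated at -0.015 (number 1), 0.13 (number 2) and -0.0075 (number 3). Among differently numbered pairs, RGFP966 library 3 with vehicle library 1 gave 0.1 and RGFP966 library 1 with vehicle library 3 gave 0.055. The remaining pairs were negative, and what these correlations reflect was not tested. With the replicate number as a block 4 of the genes were called higher and 1 lower, and 3431 of all genes were called against 3145. At these depths Eno2, Ldhb and Pdk2 did not pass the filter, and Ankrd37 rested on 7 to 25 counts a library.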

Other observations

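Beyond the genes described, other genes also differed most in vehicle library 1 and RGFP966 library 3 from the rest of their own group. Skp2, a ubiquitin ligase subunit of the cell cycle, had the largest shared excess among genes whose mean was 5 CPM or more, at 1.23 in RGFP966 library 3 and 1.01 in vehicle library 1 on the log2 scale. Tk1, the thymidine kinase of S phase, had 0.33 in RGFP966 library 3 and 0.38 in vehicle library 1. Lmbrd2, a membrane protein, had 0.64 in RGFP966 library 3 and 0.45 in vehicle library 1, and Slc2a1 had 0.31 in RGFP966 library 3 and 0.48 in vehicle library 1. Among the 60 genes of largest shared excess, 5 were among the 37 (Bnip3l, Bnip3, P4ha1, Pdk1 and Pfkl). These genes were chosen after their values were seen, and no test was run on them.

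Epas1, which encodes another HIF alpha subunit, was also chosen after its values were seen. It had 0.735, 1.01 and 0.871 CPM with RGFP966 and 0.587, 0.306 and 0.384 CPM with vehicle, with a log2 fold change of 1.02 ± 0.47 that was not called (edgeR, adjusted p = 0.111).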
